A study of Mus musculus with 6 samples.

Results

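Nerve terminals release transmitter when a synaptic vesicle fuses with the plasma membrane, and the 31 genes described here encode that machinery. They were taken by symbol from the 33274 gene rows of the deposited counts, with 1 row each, and all 31 passed the filter on low counts. They comprise 4 SNARE genes, 2 genes of SNARE disassembly, 5 calcium sensor and complexin genes, 6 active zone genes, 11 vesicle genes and 3 recycling genes. RNA came from the cerebral cortex of female wild-type mice aged 6 weeks, of the outbred ICR strain. The 3 mice of the methylphenidate lineage were F2 grandoffspring of ICR males that received methylphenidate, which blocks dopamine and noradrenaline reuptake, at 15 mg/kg under the skin on 21 days in a row. The 3 mice of the saline lineage descended from males that received saline at 10 mL/kg on the same schedule. In both lineages the dosed males, and later 1 son from each litter, were paired with undosed females, so none of the mice sequenced had been dosed.

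In the textbook account of release, synaptobrevin on the vesicle (Vamp1, Vamp2) zips together with syntaxin (Stx1a) and SNAP-25 (Snap25) on the plasma membrane, and this SNARE complex pulls the membranes into fusion. Synaptotagmins sense the calcium that enters with the nerve impulse, and complexins clamp and assist the assembled SNAREs until it arrives. Active zone scaffolds hold vesicles and calcium channels together at the release site, and after fusion the membrane is retrieved with the help of clathrin and dynamin.

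Total counts were 23896752 to 28120640 in the methylphenidate lineage and 24000528 to 26914606 in the saline lineage, and transcripts of the mitochondrial genome made up 6.44 to 8.19% of a library. The cortical excitatory markers Slc17a7, a vesicular glutamate transporter, and Camk2a, a calcium-dependent kinase, were abundant in every library. Slc17a7 averaged 1139.9 ± 115 CPM in the methylphenidate lineage and 1107 ± 48.3 CPM in the saline lineage (SD, n = 3 each), where CPM are counts per 1000000, on library sizes scaled by the trimmed mean of M-values. Choroid plexus markers spread most of the 12 marker lists, with a summed level of 21.3 to 498 CPM in the methylphenidate lineage and 42.5 to 654 CPM in the saline lineage. Since the labels name neither litter nor sire, p-values here reflect the spread among these 6 libraries alone.

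The 31 genes together held 1.62, 1.72 and 1.58% of all counts in methylphenidate replicates 1, 2 and 3, against 1.71, 1.76 and 1.66% in saline replicates 1, 2 and 3, so the ranges overlapped. None of the 31 passed the edgeR quasi-likelihood test at an adjusted p of 0.05, and the smallest adjusted p among them was 0.307. Over all 18327 genes tested 0.0273% were called, 0.0218% as higher and 0.00546% as lower in the methylphenidate lineage, and 0.0384% of the 10419 genes with a mean of at least 10 CPM. At an unadjusted p under 0.05 there were 6 of the 31 (19.4%), 2 higher (Rab3c, Sv2c) and 4 lower (Snap25, Vamp1, Syt2, Cplx1), against 7.51% of all genes tested (4.2% higher, 3.31% lower) and 8.86% of the genes at that level. The groups did not overlap in 7 of the 31 (22.6%), 2 higher and 5 lower, against 13.5% of all genes tested (6.97% higher, 6.51% lower) and 15% of the genes at that level. The members were measured with a median standard error of 0.076 on the log2 scale, against 0.15 over all genes tested and 0.097 over the genes at that level. Their median log2 fold change, methylphenidate minus saline lineage, was -0.034, with 10 above 0 and 21 below, against a median of 0.00082 over all genes tested. DESeq2, run as an alternative, called 2 of the 31, Snap25 and Syt2, both lower in the methylphenidate lineage, where it called 0.824% of all genes tested and 0.24% as lower.

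**Figure D1:**
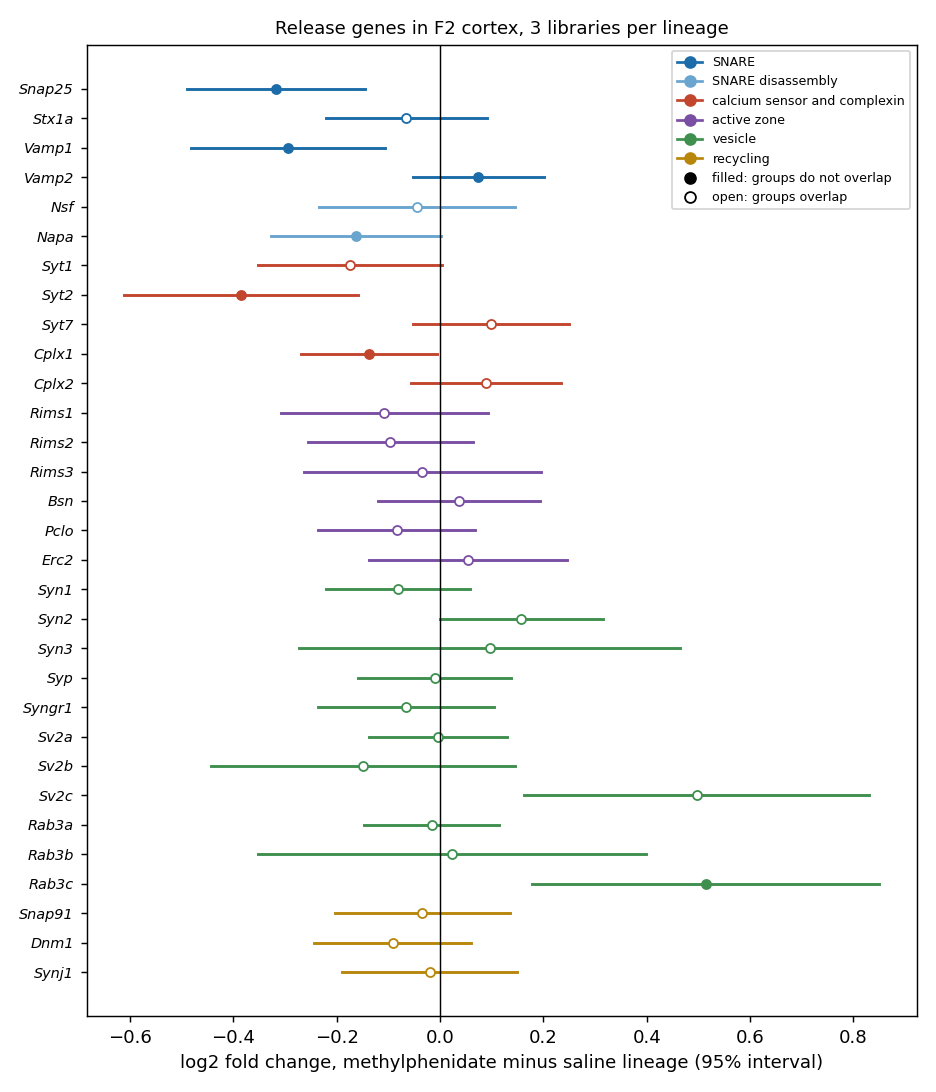
Log2 fold change of each of the 31 genes (x axis, methylphenidate minus saline lineage, bars for the 95% interval of the edgeR fit), coloured by role, with filled points where the lineages do not overlap. Snap25 (-0.32), Vamp1 (-0.29) and Syt2 (-0.38) stand to the left of 0 and Rab3c (0.51) and Sv2c (0.50) to the right, and all active zone and recycling genes have open points.

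Per kilobase of merged exons, the most abundant members in both lineages were Snap25, Cplx1, Cplx2 and Syp. Snap25 stood at 307 ± 25.3 CPM per kilobase in the methylphenidate lineage and 383 ± 18.3 CPM per kilobase in the saline lineage (SD, n = 3 each). Cplx1 stood at 304 ± 6.48 CPM per kilobase in the methylphenidate lineage and 335 ± 12.1 CPM per kilobase in the saline lineage, so its level lay within the spread of Snap25 in the methylphenidate lineage but below it in the saline lineage. The scarcest members were Sv2c, at 4.86 ± 0.875 CPM per kilobase in the methylphenidate lineage and 3.45 ± 0.537 CPM per kilobase in the saline lineage, and Syn3, at 0.852 ± 0.133 CPM per kilobase in the methylphenidate lineage and 0.798 ± 0.103 CPM per kilobase in the saline lineage. Exon lengths came from GENCODE M21 on GRCm38, an older build than that of the counts, and no coordinates from it are given.

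Among the SNARE genes, Snap25 (ENSMUSG00000027273) encodes SNAP-25, which like syntaxin is a SNARE of the plasma membrane. It had 53271, 61313 and 45813 counts in methylphenidate replicates 1, 2 and 3, against 68704, 69311 and 59520 counts in saline replicates 1, 2 and 3. Scaled to depth these were 2209, 2156 and 1889 CPM in methylphenidate replicates 1, 2 and 3, against 2619, 2711 and 2464 CPM in saline replicates 1, 2 and 3. Every methylphenidate library lay below every saline library. The log2 fold change was -0.32 (SE 0.077, 95% interval -0.49 to -0.15), a ratio of 0.802, which did not pass the threshold (edgeR adjusted p = 0.307). DESeq2 gave an adjusted p of 0.00792 for the same counts. In bulk tissue, fewer cells of a type and less RNA per cell cannot be told apart.

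The vesicle SNARE genes lay on opposite sides of 0. Vamp1 (ENSMUSG00000030337), a synaptobrevin best known from spinal cord and brainstem, had 174, 150.4 and 161 CPM in methylphenidate replicates 1, 2 and 3, against 216, 179.5 and 199 CPM in saline replicates 1, 2 and 3. The groups did not overlap, and the log2 fold change was -0.29 (SE 0.084; edgeR adjusted p = 0.445). Vamp2 (ENSMUSG00000020894), the main synaptobrevin of forebrain terminals, had 838, 845 and 851 CPM in methylphenidate replicates 1, 2 and 3, against 786, 795 and 827 CPM in saline replicates 1, 2 and 3. Its groups did not overlap either, with higher values in the methylphenidate lineage, and the log2 fold change was 0.074 (SE 0.057; edgeR adjusted p = 0.825). The log2 ratio of Vamp1 to Vamp2, which library scaling cannot move, was -2.39 ± 0.11 in the methylphenidate lineage and -2.02 ± 0.14 in the saline lineage (SD, n = 3 each). All 3 methylphenidate libraries lay below all 3 saline libraries (difference -0.37, two-sided exact permutation p = 0.1, the smallest that 3 against 3 libraries can give). Stx1a, the syntaxin of the complex, lay at 271 to 305 CPM in the methylphenidate lineage and 292 to 322 CPM in the saline lineage, and the groups overlapped (log2 fold change -0.066, SE 0.070).

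The products of Nsf and Napa take spent SNARE complexes apart. The ATPase gene Nsf averaged 668 ± 45.2 CPM in the methylphenidate lineage and 689 ± 68.8 CPM in the saline lineage (SD, n = 3 each), with overlapping groups. Napa, which encodes alpha-SNAP, the adaptor that recruits the ATPase, had 197, 193 and 189.9 CPM in methylphenidate replicates 1, 2 and 3, against 239, 204 and 205 CPM in saline replicates 1, 2 and 3. These groups did not overlap, and the log2 fold change was -0.16 (SE 0.074; edgeR adjusted p = 0.669). Without saline replicate 1, the highest library, it was -0.084.

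**Figure D2:**
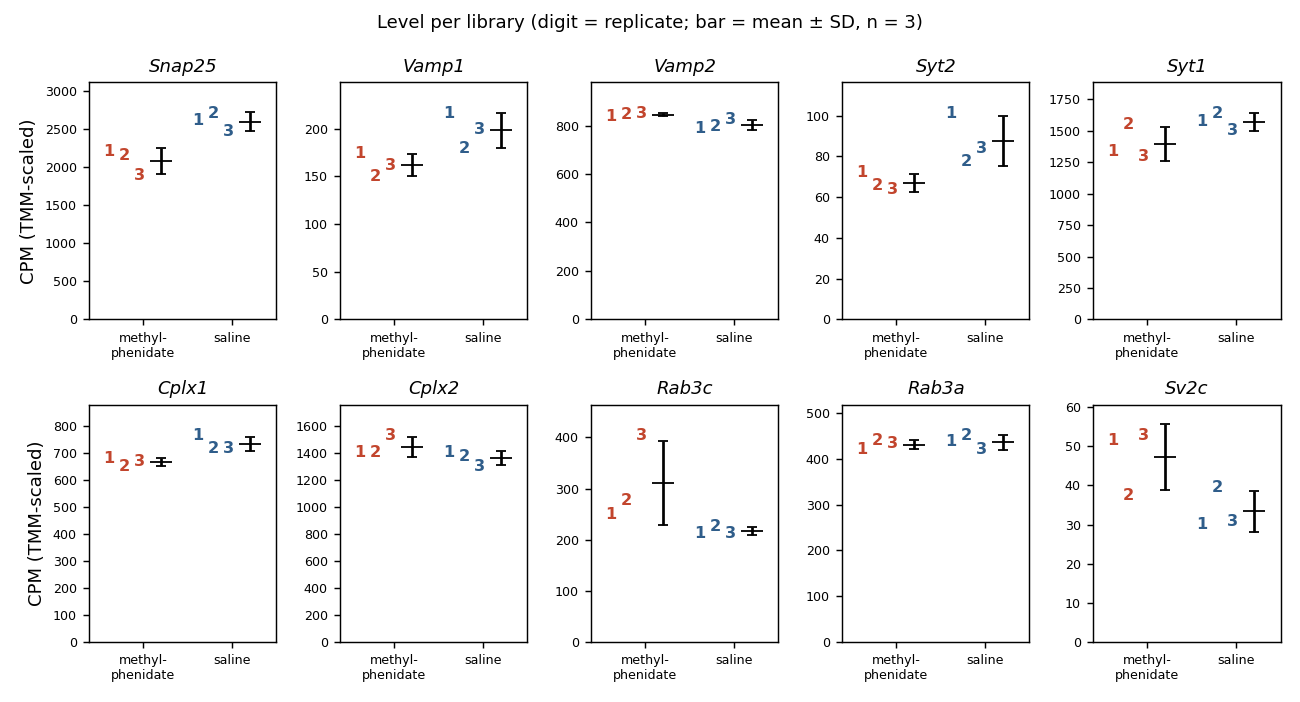
Level of 10 release genes in CPM (y axes from 0) in each library, with digits for replicates and bars for the mean and SD of 3 libraries, methylphenidate lineage left and saline lineage right. Snap25, Vamp1, Syt2 and Cplx1 lie lower in all methylphenidate libraries and Vamp2 and Rab3c higher, with Rab3c between 249 and 404 CPM within the methylphenidate lineage.

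Of the calcium sensors, Syt2 (ENSMUSG00000026452), a fast sensor found in parvalbumin interneurons and hindbrain terminals, had 72.02, 65.7 and 63.7 CPM in methylphenidate replicates 1, 2 and 3, against 101, 77.7 and 84.01 CPM in saline replicates 1, 2 and 3. The groups did not overlap. Its log2 fold change of -0.38 (SE 0.10, 95% interval -0.61 to -0.16) was the lowest of the 31 genes and did not pass the threshold (edgeR adjusted p = 0.355), while DESeq2 gave an adjusted p of 0.0459. Without saline replicate 1 it was -0.27. Syt1 (ENSMUSG00000035864), the fast sensor of most forebrain synapses, had 1332, 1548 and 1296 CPM in methylphenidate replicates 1, 2 and 3, against 1571, 1639.5 and 1502 CPM in saline replicates 1, 2 and 3. Its groups overlapped through methylphenidate replicate 2, and the log2 fold change was -0.17 (SE 0.080; edgeR adjusted p = 0.672). The log2 ratio of Syt2 to Syt1 overlapped between the lineages (difference -0.20, two-sided exact permutation p = 0.4). Syt7, a slower sensor of high affinity linked to asynchronous release, lay at 389 to 420.1 CPM in the methylphenidate lineage and 354 to 401 CPM in the saline lineage (log2 fold change 0.10, SE 0.067).

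The complexin genes also lay on opposite sides of 0. Cplx1 (ENSMUSG00000033615), in the forebrain mainly a gene of inhibitory neurons, had 679, 650.5 and 668 CPM in methylphenidate replicates 1, 2 and 3, against 763, 717 and 717 CPM in saline replicates 1, 2 and 3. The groups did not overlap, and the log2 fold change was -0.14 (SE 0.059; edgeR adjusted p = 0.643). Cplx2 (ENSMUSG00000025867), mainly a gene of excitatory neurons, had 1399, 1404 and 1526 CPM in methylphenidate replicates 1, 2 and 3, against 1400.4, 1372 and 1299.9 CPM in saline replicates 1, 2 and 3. Its groups overlapped, with a log2 fold change of 0.088 (SE 0.065). The log2 ratio of Cplx1 to Cplx2 was -1.12 ± 0.074 in the methylphenidate lineage and -0.89 ± 0.041 in the saline lineage (SD, n = 3 each), without overlap (difference -0.23, two-sided exact permutation p = 0.1).

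Parvalbumin interneurons are among the cells that express Syt2, Vamp1 and Cplx1. On a list of 6 markers of these cells, all 6 had log2 fold changes below 0 (median -0.15), none passed edgeR, and none was at 0 in any library. Their summed level was 477 to 539 CPM in the methylphenidate lineage and 553 to 623 CPM in the saline lineage, without overlap. Taken singly, only Pvalb was without overlap, and 2 of the 6 had an unadjusted edgeR p under 0.05. Kcnc1, the largest part of the sum, overlapped between the lineages. It averaged 240 ± 12.6 CPM in the methylphenidate lineage and 266 ± 28.5 CPM in the saline lineage (SD, n = 3 each). Pvalb, the calcium buffer that names the cells, averaged 54.3 ± 5.03 CPM in the methylphenidate lineage and 65.95 ± 7.11 CPM in the saline lineage (SD, n = 3 each). The 8 markers of inhibitory neurons at large summed to 1223 to 1268 CPM in the methylphenidate lineage and 1178 to 1259 CPM in the saline lineage, which overlapped. The part of the parvalbumin list in Syt2, Vamp1 and Cplx1 was not tested. Beside Snap25 and Syt1, 8 of 10 excitatory cortical markers had log2 fold changes below 0 (median -0.22), 5 of them at an unadjusted p under 0.05 and none past edgeR, with none at 0 in any library. The mean centred log2 CPM of this list was -0.12, -0.0047 and -0.19 in methylphenidate replicates 1, 2 and 3, against 0.083, 0.16 and 0.069 in saline replicates 1, 2 and 3, without overlap. Its summed level, most of which is Camk2a and Slc17a7, the 2 markers above 0, overlapped at 4825 to 5398 CPM in the methylphenidate lineage and 4935 to 5202 CPM in the saline lineage. The part of the excitatory list in Snap25 and Syt1 was not tested.

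**Figure D3:**
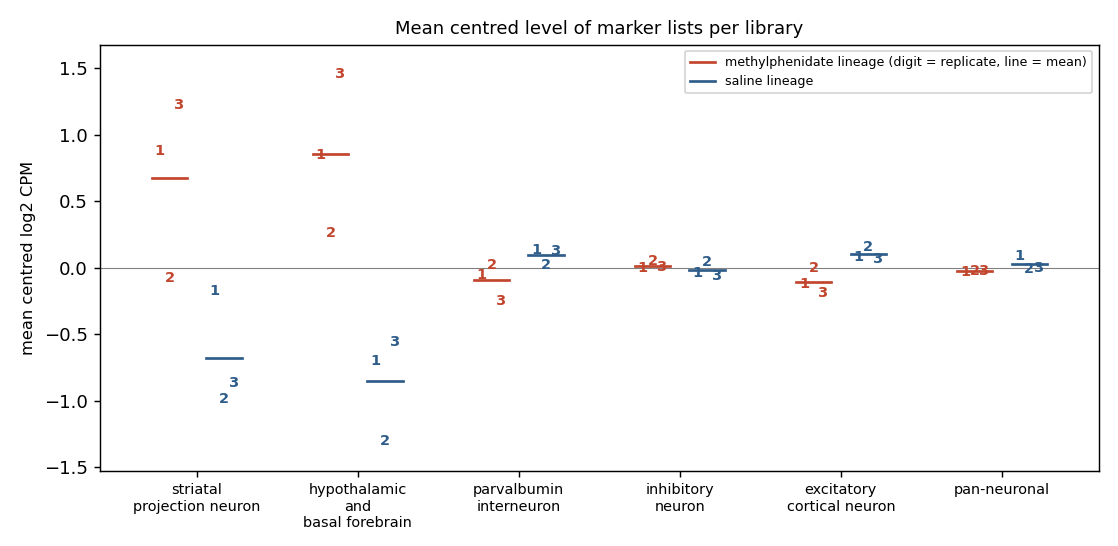
Mean centred log2 CPM (y axis) of 6 marker lists in each library, with digits for replicates and lines for the group means. Of the 6 lists plotted, the striatal and the hypothalamic and basal forebrain lists spread most and lie higher in all methylphenidate libraries. The parvalbumin, excitatory and pan-neuronal lists lie lower in all methylphenidate libraries. The margin between methylphenidate and saline replicate 2 is narrow in the parvalbumin list (0.018 and 0.020) and the pan-neuronal list (-0.020 and -0.012).

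The groups overlapped in all 6 active zone genes, 2 with log2 fold changes above 0 and 4 below (median -0.059). RIM proteins tether vesicles and calcium channels, and for their genes the log2 fold change was -0.11 (SE 0.090) in Rims1, -0.10 (SE 0.071) in Rims2 and -0.034 (SE 0.10) in Rims3, which encodes a short form. For the giant scaffolds it was 0.037 (SE 0.070) in Bsn (bassoon) and -0.084 (SE 0.068) in Pclo (piccolo), and for the ELKS scaffold Erc2 it was 0.055 (SE 0.086). Bsn averaged 572 ± 8.47 CPM in the methylphenidate lineage and 558 ± 46.4 CPM in the saline lineage (SD, n = 3 each). The 95% intervals of these 6 values reached -0.31 at the lowest and 0.25 at the highest.

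Several genes of the vesicle membrane had close means. Syp, the abundant membrane protein synaptophysin, averaged 1227 ± 73.7 CPM in the methylphenidate lineage and 1236 ± 38.9 CPM in the saline lineage (SD, n = 3 each). Sv2a, the most widespread SV2 protein and the binding site of levetiracetam, averaged 473 ± 13.9 CPM in the methylphenidate lineage and 474 ± 18.4 CPM in the saline lineage (SD, n = 3 each). Rab3a, the main RAB3 GTPase of synaptic vesicles, averaged 431 ± 9.15 CPM in the methylphenidate lineage and 436 ± 15.7 CPM in the saline lineage (SD, n = 3 each). The 95% interval of the log2 fold change was -0.16 to 0.14 for Syp, -0.14 to 0.13 for Sv2a and -0.15 to 0.11 for Rab3a. Syngr1, a relative of synaptophysin, lay at 580.0 to 664 CPM in the methylphenidate lineage and 615 to 701 CPM in the saline lineage (log2 fold change -0.067, SE 0.076). Sv2b, another SV2 protein, lay at 359 to 507 CPM in the methylphenidate lineage and 406 to 538 CPM in the saline lineage (log2 fold change -0.15, SE 0.13).

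Rab3c (ENSMUSG00000021700), a paralog of Rab3a, had the highest log2 fold change of the 31 genes. It had 6016, 7881 and 9789 counts in methylphenidate replicates 1, 2 and 3, against 5572, 5785 and 5135 counts in saline replicates 1, 2 and 3. Scaled to depth these were 249, 277 and 404 CPM in methylphenidate replicates 1, 2 and 3, against 212, 226 and 213 CPM in saline replicates 1, 2 and 3. Every methylphenidate library lay above every saline library, and methylphenidate replicate 3 stood well above the rest. The log2 fold change was 0.51 (SE 0.15, 95% interval 0.18 to 0.85; edgeR adjusted p = 0.465). Without methylphenidate replicate 3 it was 0.28 (edgeR adjusted p = 0.606). The log2 ratio of Rab3c to Rab3a was -0.51 ± 0.35 in the methylphenidate lineage and -1.01 ± 0.034 in the saline lineage (SD, n = 3 each), without overlap (difference 0.50, two-sided exact permutation p = 0.1). Rab3b, the third paralog here, lay at 31.4 to 51.5 CPM in the methylphenidate lineage and 34.5 to 44.3 CPM in the saline lineage (log2 fold change 0.024, SE 0.17).

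Sv2c (ENSMUSG00000051111), the SV2 protein most abundant in the basal ganglia, had 51.4, 37.4 and 52.7 CPM in methylphenidate replicates 1, 2 and 3, against 30.04, 39.4 and 30.8 CPM in saline replicates 1, 2 and 3. The groups overlapped, because saline replicate 2 exceeded methylphenidate replicate 2. The log2 fold change was 0.50 (SE 0.15, 95% interval 0.16 to 0.83; edgeR adjusted p = 0.492). On a list of 12 markers of striatal projection neurons, which lie below the cortex, 11 were tested, all 11 had log2 fold changes above 0 (median 0.98), all 11 had an unadjusted p under 0.05, none passed edgeR, and Isl1 was at 0 in some libraries. Their summed level was 624 to 1260.4 CPM in the methylphenidate lineage and 493 to 620.4 CPM in the saline lineage. The mean centred log2 CPM of that list was 0.88, -0.073 and 1.22 in methylphenidate replicates 1, 2 and 3, against -0.18, -0.99 and -0.87 in saline replicates 1, 2 and 3. Methylphenidate replicates 1 and 3 were highest in both Sv2c and the list, while saline replicate 2 had the top saline value of Sv2c and the bottom one of the list. For Rab3c as for the list, methylphenidate replicate 3 was highest and every saline library lay below every methylphenidate library, while replicates 1 and 2 of the methylphenidate lineage were in the opposite order. On a list of 10 hypothalamic and basal forebrain markers, 8 were tested, all 8 had log2 fold changes above 0 (median 2.06), 6 had an unadjusted p under 0.05 and none passed edgeR. Their mean centred log2 CPM was 0.85, 0.26 and 1.46 in methylphenidate replicates 1, 2 and 3, against -0.70, -1.30 and -0.56 in saline replicates 1, 2 and 3, without overlap, and their summed level was 16.8 to 45.1 CPM in the methylphenidate lineage and 7.50 to 8.15 CPM in the saline lineage, with Avp, Oxt and Hcrt at 0 in some libraries. The part of these lists in Sv2c and Rab3c was not tested.

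Synapsins are phosphoproteins that hold the reserve pool of vesicles. Syn2 (ENSMUSG00000009394) had 412, 482 and 456 CPM in methylphenidate replicates 1, 2 and 3, against 408, 413 and 389 CPM in saline replicates 1, 2 and 3. Methylphenidate replicate 1 lay inside the saline range and the other 2 lay above it, and the log2 fold change was 0.16 (SE 0.071; edgeR adjusted p = 0.665). Syn1 lay at 472 to 527 CPM in the methylphenidate lineage and 519.5 to 536 CPM in the saline lineage (log2 fold change -0.081, SE 0.062). The log2 ratio of Syn2 to Syn1 was -0.15 ± 0.11 in the methylphenidate lineage and -0.39 ± 0.041 in the saline lineage (SD, n = 3 each), without overlap (difference 0.24, two-sided exact permutation p = 0.1). Syn3 had 216 to 346 counts in the methylphenidate lineage and 219 to 288 counts in the saline lineage (log2 fold change 0.10, SE 0.17). Its value is uncertain, because its exons share 1733 bases with Timp3 on the opposite strand in GENCODE M21 and whether counting used strand is unknown from the labels. Over the 6 libraries Syn3 had 1556 counts and Timp3 15278. Syn2 shares 90 bases with Timp4 in the same way.

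Of the 9 pairs of paralogs compared, 4 did not overlap between the lineages, and the share among other gene pairs was not tested. The pairs are not independent, since Sv2a, Rab3a and Syn1 each serve in more than 1 pair. Vamp1, Vamp2, Cplx1 and Rab3c were also without overlap as single genes. The ratios of Vamp1 to Vamp2 and Cplx1 to Cplx2 were lower in all methylphenidate libraries, and those of Rab3c to Rab3a and Syn2 to Syn1 were higher. Adjusted over the 9 pairs, the exact permutation p of each of these 4 was 0.225, and with 3 libraries per lineage no pair could pass 0.05. The remaining 5 pairs overlapped, with unadjusted exact permutation p from 0.2 to 1.

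**Figure D4:**
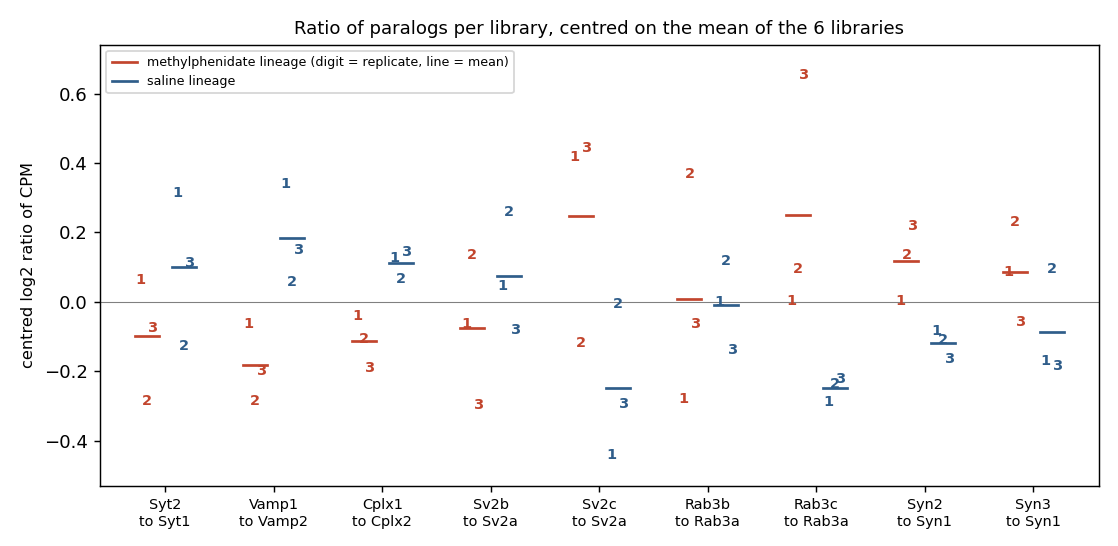
Log2 ratio of 9 pairs of paralogs in each library, centred on the 6 libraries (y axis), with digits for replicates and lines for the group means. The Vamp1 to Vamp2 and Cplx1 to Cplx2 ratios lie lower in all 3 methylphenidate libraries, and the Rab3c to Rab3a and Syn2 to Syn1 ratios higher.

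Promoter sequences are shown for the 5 genes with an unadjusted p under 0.05 that have a RefSeq entry, since these, with Snap25, are the members of smallest p. Of the 31 members, 26 matched an entry. Each window runs from 250 bases before to 50 bases after the start, 5′ to 3′ on the strand of the gene, from RefSeq on GRCm38.p6. Capitals mark GC boxes, GGGCGG or CCGCCC on the other strand, the motif that Sp1 binds. The windows are Vamp1 at chr6:125215331-125215630 on the plus strand, Syt2 at chr1:134646362-134646661 on the plus strand (the first of 2 starts), Cplx1 at chr5:108549978-108550277 on the minus strand, Rab3c at chr13:110280157-110280456 on the minus strand and Sv2c at chr13:96132528-96132827 on the minus strand.
Vamp1: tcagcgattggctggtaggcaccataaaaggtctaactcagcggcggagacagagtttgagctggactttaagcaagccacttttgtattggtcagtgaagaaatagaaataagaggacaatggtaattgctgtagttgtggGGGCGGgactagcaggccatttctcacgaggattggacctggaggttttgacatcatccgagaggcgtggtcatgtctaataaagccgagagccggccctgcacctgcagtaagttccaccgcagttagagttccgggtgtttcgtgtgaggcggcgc
Syt2: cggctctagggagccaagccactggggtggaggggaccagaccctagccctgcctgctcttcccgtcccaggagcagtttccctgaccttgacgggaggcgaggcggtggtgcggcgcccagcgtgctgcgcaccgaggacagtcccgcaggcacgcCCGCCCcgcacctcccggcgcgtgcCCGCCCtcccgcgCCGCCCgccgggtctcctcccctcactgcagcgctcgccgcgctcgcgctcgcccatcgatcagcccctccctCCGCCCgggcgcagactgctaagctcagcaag
Cplx1: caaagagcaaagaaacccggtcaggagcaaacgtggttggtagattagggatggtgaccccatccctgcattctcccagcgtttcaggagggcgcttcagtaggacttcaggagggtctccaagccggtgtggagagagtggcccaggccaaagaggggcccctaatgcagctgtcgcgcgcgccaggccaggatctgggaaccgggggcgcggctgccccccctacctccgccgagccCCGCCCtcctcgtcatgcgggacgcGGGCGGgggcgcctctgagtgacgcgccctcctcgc
Rab3c: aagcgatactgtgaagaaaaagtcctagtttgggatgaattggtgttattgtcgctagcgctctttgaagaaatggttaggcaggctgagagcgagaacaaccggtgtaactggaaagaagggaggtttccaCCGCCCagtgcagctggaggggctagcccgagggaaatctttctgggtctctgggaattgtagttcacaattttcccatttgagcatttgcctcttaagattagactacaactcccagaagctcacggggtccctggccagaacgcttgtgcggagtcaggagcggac
Sv2c: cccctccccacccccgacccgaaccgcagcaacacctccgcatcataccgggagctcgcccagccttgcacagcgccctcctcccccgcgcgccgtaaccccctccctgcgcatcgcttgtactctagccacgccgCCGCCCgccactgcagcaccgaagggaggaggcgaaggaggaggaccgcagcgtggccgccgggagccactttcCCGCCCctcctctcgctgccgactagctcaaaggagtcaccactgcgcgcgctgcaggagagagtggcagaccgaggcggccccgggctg

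The Syt2 window holds 4 GC boxes, those of Cplx1 and Sv2c 2 each, and those of Vamp1 and Rab3c 1 each. GC boxes were in 23 of the 34 windows of members and in 35.7% of all 32851 RefSeq windows. The cyclic AMP response element TGACGTCA was in none of the 5 windows shown, in 2 of the 34 and in 1.79% of all windows. The TATA box TATAAA, or TTTATA on the other strand, was in none of the 5, in 3 of the 34 and in 13.6% of all windows. Members' windows had a median GC content of 65.7%, against 52.7% over all windows. Genes with log2 fold changes on both sides of 0 carried GC boxes.

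The 3 recycling genes had overlapping groups. Dnm1, the neuronal dynamin that cuts vesicles from the membrane, averaged 1089 ± 51.2 CPM in the methylphenidate lineage and 1161 ± 65.7 CPM in the saline lineage (SD, n = 3 each), with a log2 fold change of -0.092 (SE 0.068). It was -0.034 (SE 0.076) for Snap91, the clathrin adaptor AP180, and -0.020 (SE 0.076) for Synj1, a lipid phosphatase that helps to shed the coat.

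By role, the median log2 fold change was -0.18 over the SNARE genes, -0.10 over SNARE disassembly, -0.14 over calcium sensors and complexins, -0.0039 over vesicle genes and -0.034 over recycling. Without methylphenidate replicate 1 the vesicle and recycling medians were above 0, at 0.024 and 0.0052. The vesicle median was also above 0 without methylphenidate replicate 3, saline replicate 1 or saline replicate 2, at 0.0040, 0.022 and 0.015. The mean centred log2 level of the SNARE genes was -0.057, -0.074 and -0.10 in methylphenidate replicates 1, 2 and 3, against 0.10, 0.035 and 0.088 in saline replicates 1, 2 and 3, without overlap. That of the calcium sensor and complexin genes was -0.053, -0.043 and -0.054 in methylphenidate replicates 1, 2 and 3, against 0.13, 0.011 and 0.0058 in saline replicates 1, 2 and 3, also without overlap. The other 4 roles overlapped. Beside these, the mean centred log2 CPM of 9 pan-neuronal markers was -0.034, -0.020 and -0.027 in methylphenidate replicates 1, 2 and 3, against 0.092, -0.012 and 0.00014 in saline replicates 1, 2 and 3, without overlap, with log2 fold changes above 0 in 4 and below in 5 and a summed level of 4109 to 4296 CPM in the methylphenidate lineage and 4141 to 4355 CPM in the saline lineage. That of 5 markers of oligodendrocyte precursors, all 5 with log2 fold changes above 0, was 0.11, 0.17 and 0.19 in methylphenidate replicates 1, 2 and 3, against -0.16, -0.25 and -0.065 in saline replicates 1, 2 and 3, without overlap, with a summed level of 236 to 245 CPM in the methylphenidate lineage and 180.2 to 224 CPM in the saline lineage. No marker of either list was at 0 in any library, and the part of these lists in the role levels was not tested. Methylphenidate replicates 1, 2 and 3 were the highest library in 0, 7 and 5 of the 31 genes, and saline replicates 1, 2 and 3 in 10, 8 and 1. As the lowest library they counted 6, 3 and 12 genes in the methylphenidate lineage and 3, 2 and 5 in the saline lineage. The same counts were not made over all genes tested, so they are not particular to the members.

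**Figure D5:**
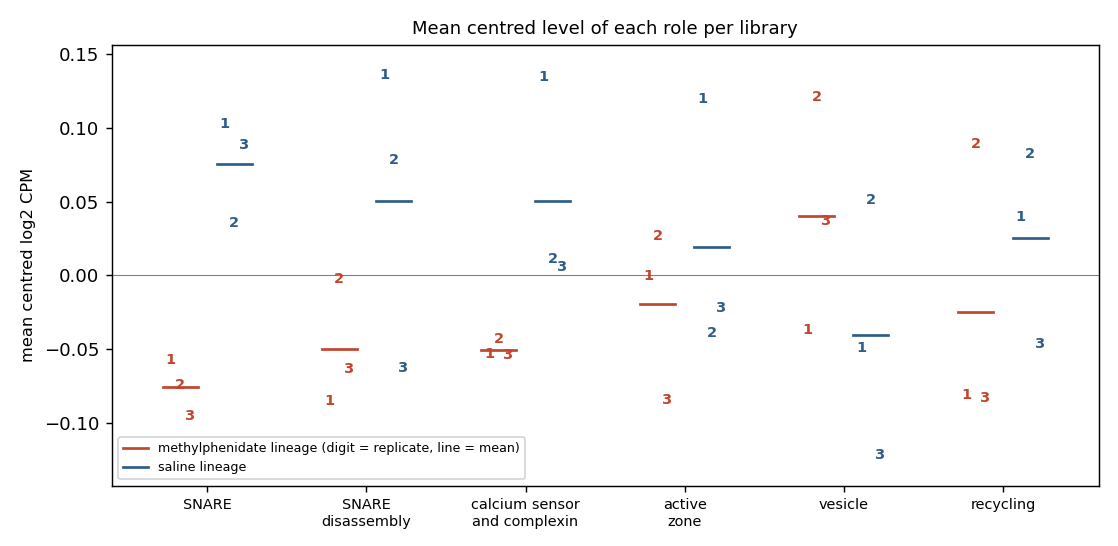
Mean over the genes of each role of log2 CPM centred on the 6 libraries (y axis), with digits for replicates and lines for the group means. The 4 SNARE members and the 5 calcium sensor and complexin members lie lower in all 3 methylphenidate libraries, and the other 4 roles overlap. Further SNARE and calcium sensor genes, not plotted, overlapped in mean level.

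The rest of the release pathway was read from a list of 74 further genes, of which 73 were tested and none passed edgeR. At an unadjusted p under 0.05 there were 7 of 73 (9.59%), 3 higher and 4 lower, and the groups did not overlap in 8 of 73 (10.96%), against 7.51% and 13.5% of all genes tested. The median log2 fold change was -0.015, with 31 above 0 and 42 below. Above and below 0 were 5 and 6 calcium sensor and complexin, 8 and 3 active zone and 7 and 7 vesicle genes. Calcium channel genes split 1 and 4, and recycling genes 9 and 12. Of 11 SNARE and SNARE-binding genes on the list, 10 were below 0 (median -0.026), 0 had an unadjusted p under 0.05 and all groups overlapped. Their mean centred log2 level overlapped too, at -0.036 to 0.00030 in the methylphenidate lineage and -0.0043 to 0.050 in the saline lineage. That of the 11 calcium sensor and complexin genes tested also overlapped, at -0.025 to 0.078 in the methylphenidate lineage and -0.064 to -0.00025 in the saline lineage. For Stxbp5l, a tomosyn, the log2 fold change was -0.14 (SE 0.10).

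The calcium channel subunit gene Cacnb4 averaged 289 ± 34.9 CPM in the methylphenidate lineage and 354 ± 17.03 CPM in the saline lineage (SD, n = 3 each), and its log2 fold change was -0.29 (SE 0.089; edgeR adjusted p = 0.499). Cacna1a, the pore of the P/Q-type channel, had -0.060 (SE 0.060). Among further synaptotagmins, the log2 fold change was -0.25 (SE 0.079) for Syt4 and 0.95 (SE 0.37) for Syt10. Syt10 averaged 5.46 ± 2.54 CPM in the methylphenidate lineage and 2.84 ± 0.666 CPM in the saline lineage (SD, n = 3 each). Of active zone genes it was 0.61 (SE 0.20) for Unc13c, a Munc13 priming factor, and -0.14 (SE 0.10) for Ppfia2, a liprin scaffold. Of vesicle genes it was -0.24 (SE 0.078) for Sypl and 0.18 (SE 0.081) for Syngr3, both relatives of genes named above. Of endocytic genes it was -0.16 (SE 0.069) for Sh3gl2, an endophilin, and 0.15 (SE 0.067) for Ap2s1, a subunit of the clathrin adaptor AP-2.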

How the data were processed

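Cortex RNA of 6 mice was selected for poly(A) and sequenced as directional libraries, per the labels' protocols. The submitters' processing notes list bcl2fastq 2.19, fastp 0.23.4, HISAT2 2.2.1, StringTie 2.2.1 and the build GRCm39, with no roles. The annotation and strand setting are unknown here. The authors deposited unnormalized whole-number counts, 1 row per Ensembl gene. No symbol is given for 985 of 33274 rows.

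Groups came from the labels. edgeR 4.0.16 in R 4.3.3 was run with filterByExpr, TMM scaling and its quasi-likelihood test on lineage alone, two-sided, with Benjamini-Hochberg adjustment over 18327 genes and a threshold of 0.05. List levels are log2 CPM with a prior count of 2, centred per gene. Tried as alternatives were other scalings and filters, library sizes without mitochondrial genes, a replicate block, DESeq2 1.42.0, limma-voom (limma 3.58.1) and each library left out. The edgeR script was also tested on simulated data, with 50 genes changed at each fold, all of them with a mean of at least 10 CPM. Recovery of genes below that level was not simulated. It recovered 4% of 1.2-fold, 54% of 1.5-fold, 94% of 2-fold and 100% of 4-fold changes. Of its 147 calls there, 21 were false, a larger share than the threshold of 0.05. The members and lists were chosen with earlier results of these data known. Named are all 31 members and, of the other pathway genes, the 2 of smallest p in each role, except 1 that is not reported here. The promoters shown were chosen after their values were seen.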

Additional observations from a re-analysis of the deposited data

How the results depend on the processing

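No member was called by edgeR in any setting run or by limma-voom. DESeq2 called 151 genes, 2 of them members, against 5 genes by edgeR. Over all genes edgeR called 10 with total counts, 3 with no filter and 2 to 26 with 1 library left out. With the replicate number as a block it called 2. Same-numbered libraries deviated with correlations of -0.044, 0.091 and -0.024. Deviations from means of 3 libraries are tied to each other, so these values cannot show whether such libraries shared a litter, sire or batch. The labels give no pairing. The block moved the SE of some members, from 0.13 to 0.056 for Sv2b and from 0.15 to 0.17 for Sv2c. With all 6 libraries, 9 members did not overlap with upper-quartile scaling, 10 with total counts and 9 with a stricter filter on low counts. Of all genes tested in these settings, 13.4, 13.1 and 13.9% did not overlap. With 1 library left out, 8 to 14 members did not overlap (14 without methylphenidate replicate 2 and 11 without saline replicate 2), beside 21.6 to 25.1% of all genes tested. The median log2 fold change then ran from -0.10 to -0.00020 over members, -0.19 to -0.15 over SNARE genes, -0.089 to 0.017 over active zone genes, -0.033 to 0.024 over vesicle genes and -0.11 to 0.0052 over recycling genes. The vesicle median was also above 0 with upper-quartile scaling (0.0019) and total counts (0.0067).

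Of 465 log2 fold changes of members under alternatives, 441 kept their direction and side of the threshold, 2 passed it (DESeq2) and 22 changed sign, in 11 genes. Sv2a was 0.0019 with upper-quartile scaling and 0.0067 with total counts. With 1 library left out, the values ran from -0.0041 to 0.11 for Bsn, -0.047 to 0.11 for Erc2, -0.12 to 0.024 for Nsf, -0.044 to 0.0080 for Rab3a, -0.20 to 0.17 for Rab3b, -0.11 to 0.052 for Rims3, -0.11 to 0.0052 for Snap91, -0.033 to 0.022 for Sv2a, -0.028 to 0.21 for Syn3, -0.10 to 0.032 for Synj1 and -0.060 to 0.024 for Syp. Among genes that kept their sign, it ran from -0.29 to -0.037 for Sv2b, -0.10 to -0.013 for Stx1a, -0.17 to -0.013 for Rims1 and -0.12 to -0.0061 for Syngr1. The cause was not tested. Snap25, Vamp1, Syt2, Cplx1, Rab3c and Sv2c kept their direction in all settings run. The 3 libraries per lineage limit the precision, and a difference that missed the threshold is not shown to be absent.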
